A study of Apis mellifera with 6 samples.

Results

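A total of 86 genes, of the 10041 listed for the honey bee (Apis mellifera) midgut, were repressed in every library of bees fed halofuginone. A gene was taken into this set when its 3 controls averaged at least 50 normalised counts and its lowest control was at least 1.5 times its highest halofuginone library. Genes of several families with set names were left out by symbol, among them heat shock, ribosomal, troponin, cytochrome P450, immune and antioxidant genes and the loci of small RNAs, and this took 4 genes (Calpb, Nedd9, Mir750 and Mir1175) out of 90. Midguts came from adult bees that had fed for 24 h on sucrose solution with 200 µM halofuginone in 0.5% DMSO, or with 0.5% DMSO alone. The 3 control libraries are numbered Control 1 to 3 and the treated libraries Halofuginone 2 to 4. The study's methods state that each library came from the midgut of a single bee. They also state that the bees of an experiment came from the same colony. The spread within a group therefore holds differences between bees together with the counting noise of each library. A normalised count is a gene's read count divided by a size factor of its library. It grows with transcript length, so counts are compared here within a gene.

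Halofuginone inhibits prolyl-tRNA synthetase, which loads proline onto its tRNA. Unloaded tRNA activates the integrated stress response (ISR), in which phosphorylation of a translation initiation factor lowers protein synthesis as a whole while selected stress transcripts, such as that of ATF4, are still translated. The midgut is the main site of digestion and absorption in the bee. Its epithelium secretes enzymes that split sugars, proteins and lipids, and proton pumps in its membranes drive transport. Of the 86 genes, 84 carry only a gene number in the files, and the sources used here give them no name and no function. The other 2 are Hbg3, an alpha-glucosidase gene, and Vha16, which encodes a membrane subunit of the vacuolar proton pump (V-ATPase).

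Between 23305398 and 26278866 reads were assigned to the listed genes in a library, and 6 to 15 genes per library were at 0. The set was chosen on the same 6 libraries that are described below, so every difference between the groups is a description. How many members limma called is given beside the share of all genes, and nothing is read from it.

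In the controls the 86 genes made up 3.34%, 2.97% and 2.94% of the normalised counts of Control 1, 2 and 3. Their share was 1.49%, 1.23% and 1.45% in Halofuginone 2, 3 and 4. LOC726855 alone held 2.07%, 1.73% and 1.74% of the controls and 0.940%, 0.603% and 0.962% of the treated libraries. Without it the other 85 genes stood at 1.204% to 1.273% in the controls and at 0.493% to 0.623% after halofuginone, a direction that the rule fixes. In whole midguts, fewer cells of a type and less RNA per cell cannot be told apart.

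The median member was 2.40-fold lower after halofuginone, as a ratio of group means. On the log2(count + 1) scale the median difference was −1.27, against −0.01 over all genes, and the middle of the set ran from −1.59 to −0.99 (quartiles). Of the 86 genes, 64 were more than 2-fold lower, 21 more than 3-fold and 10 more than 4-fold. The ratio of lowest control to highest halofuginone library had a median of 1.72 and reached 3.73, with 20 genes at 2 or above and 4 at 3 or above. At the limits used in the study, an adjusted p below 0.05 and a log2 fold change below −1, limma called 55 of the 86, and 75 passed the adjusted p alone. Over all 10041 genes these shares were 0.697% and 2.25%. Leaving out Control 2 or Control 3 lowered the count of 55 to 11 or 9, and leaving out Halofuginone 2 or Halofuginone 4 to 33 or 24. A complete separation of the groups, which the rule demands, was met in the lower direction by 14.7% of all genes, and the full rule before names were removed by 1.08% of the 8303 genes with a control mean of at least 50.

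**Figure D1:**
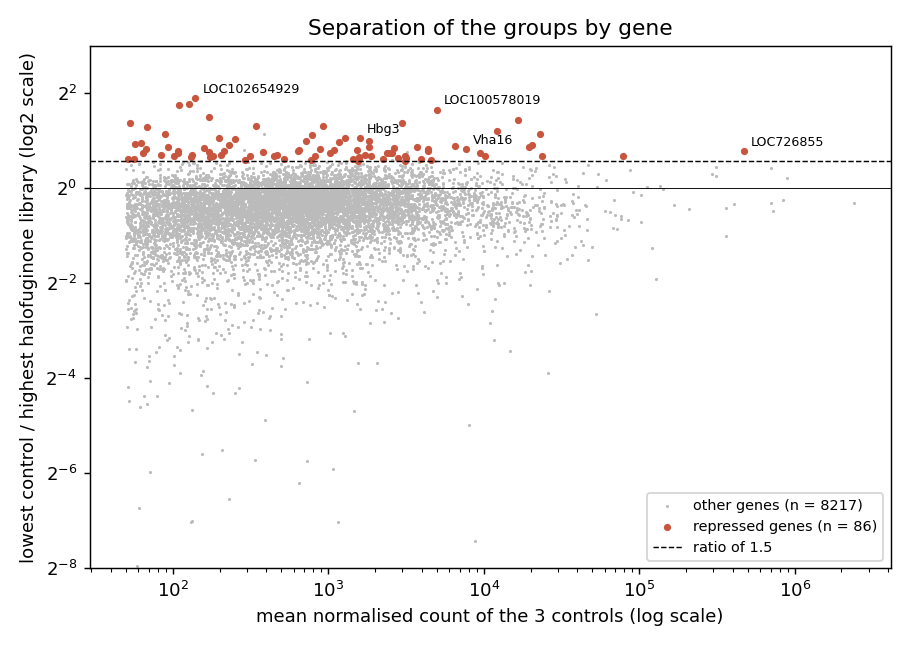
Ratio of the lowest control to the highest halofuginone library (vertical axis, log2 scale) against the mean normalised count of the 3 controls (horizontal axis, log scale) for genes with a control mean of at least 50. The 86 repressed genes (red) lie on or above the dashed line at 1.5, the 4 grey points above it are the genes left out by symbol, 3 genes with a control at 0 could not be drawn and 4 others lie below the axis.

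The separation was not limited to abundant or to rare transcripts. Control means ran from 51.5 (LOC102654285) to 468746 (LOC726855) normalised counts, with a median of 910, against 581 over all 8303 genes with a control mean of at least 50. A total of 38 members averaged at least 1000 counts over the 6 libraries, and their folds ran from 1.57 to 4.57 with a median of 2.33. The 28 members between 100 and 1000 had a median of 2.38 and a highest fold of 5.20. Below 100 there were 20 members with a median of 3.10, and here the spread within groups was widest. The median coefficient of variation (CV) was 26.3% in the controls and 31.2% after halofuginone. In the group above 1000 these values were 13.3% and 13.5%. Counting noise is larger at low counts, and its part in this spread was not separated from differences between bees.

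**Figure D2:**
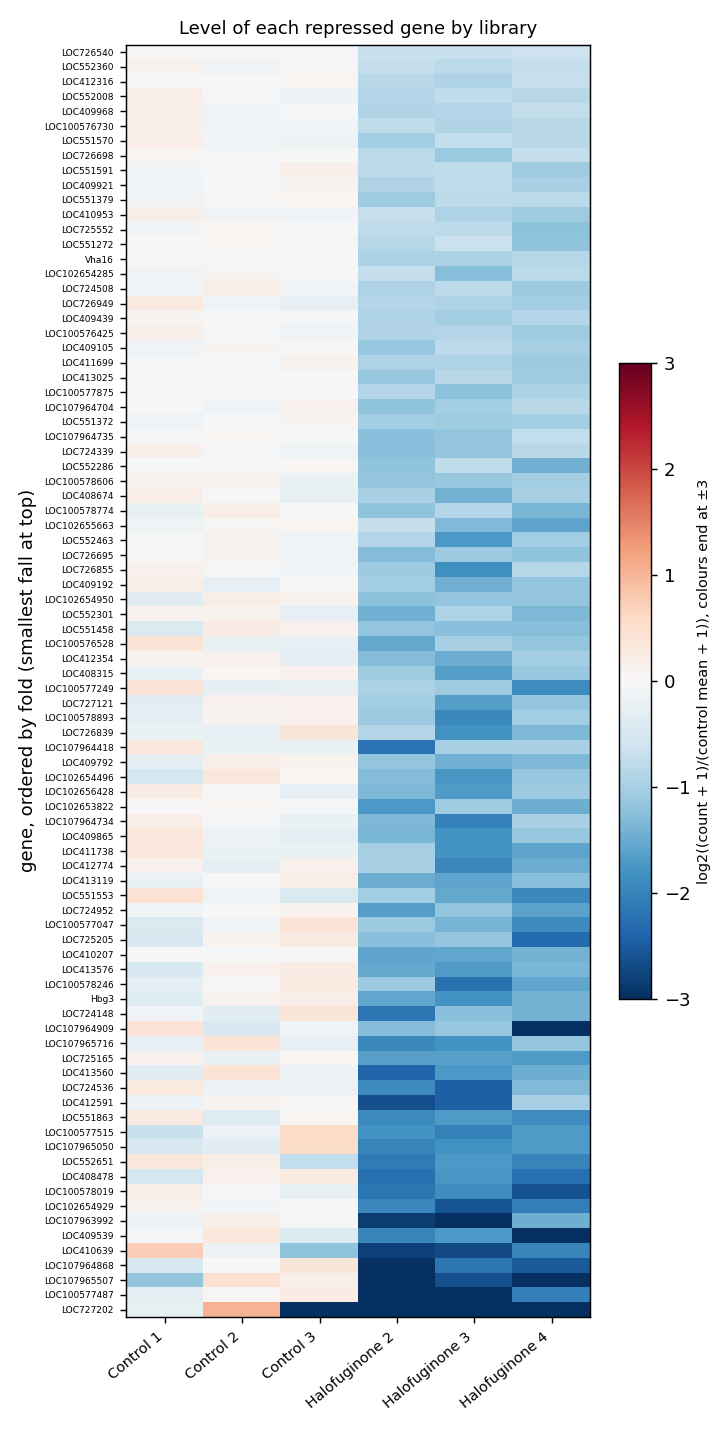
Level of each of the 86 repressed genes (rows) in each library (columns), as log2((count + 1)/(control mean + 1)), with red above and blue below the control mean and colours ending at ±3. Every row is lower in the 3 halofuginone columns than in the 3 control columns, from LOC726540 at the top (1.57-fold lower) to LOC727202 at the bottom, where Control 3 is as dark as the treated libraries.

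Hbg3 belongs to the family of alpha-glucosidases, which split sucrose into glucose and fructose. The foragers' hypopharyngeal gland is known to secrete its product into nectar. Its normalised counts were 1244, 1706 and 1834 in Control 1, 2 and 3 and 544, 458 and 598 in Halofuginone 2, 3 and 4. The lowest control was 2.08 times the highest treated library. Control bees averaged 1594 ± 310 counts and treated bees 533 ± 70.6 (SD, n = 3), or 2.99-fold lower, with a log2 fold change of −1.57 ± 0.18 (SE). In the gene order of the RefSeq assembly Amel_HAv3.1 the span of Hbg3 overlaps that of LOC724389, which averaged 55.3 counts in the controls with a log2 fold change of 0.07.

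None of the other sugar enzyme genes with a symbol met the rule. AGLU2, for which RefSeq also gives the name Hbg1, stood at 627783, 752645 and 745032 counts in the controls and at 463341, 412524 and 386002 after halofuginone. All 3 treated libraries of AGLU2 thus lay below the controls, by a ratio of 1.35, with group means of 708487 ± 69995 and 420623 ± 39300 (SD, n = 3). The log2 fold change of AGLU2 was −0.75 ± 0.41 (SE), with a limma adjusted p of 0.322. This SE is moderated toward genes of similar count, so it is not the spread between these bees alone. Hbg2 overlapped between the groups, with 546506, 645497 and 935503 counts in the controls and 615295, 678642 and 598976 after halofuginone, and its log2 difference of −0.13 ± 0.47 (SE) had a limma adjusted p of 0.901. B-gluc1, a beta-glucosidase by its symbol, also overlapped, at 106 to 254 counts in the controls and 65.2 to 109 after halofuginone.

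Vha16 showed one of the narrowest spreads of the set. V-ATPases pump protons across membranes and acidify organelles, and in insect guts they energise the uptake of nutrients. The counts of Vha16 were 7898, 7558 and 7589 in the controls and 3979, 3965 and 4276 in Halofuginone 2, 3 and 4. Within each group the libraries were close together, with a CV of 2.45% in the controls, and the group means were 7682 ± 188 and 4074 ± 175 (SD, n = 3). The gene was 1.89-fold lower after halofuginone, with a log2 fold change of −0.92 ± 0.10 (SE). The other subunits of the pump were not compared here.

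The other transport genes with a symbol did not meet the rule. Tret1, a trehalose transporter, overlapped between the groups, with 13266 to 14909 counts in the controls and 10777 to 13301 after halofuginone. Slc35b1, of the family of nucleotide sugar carriers, stood at 1760 to 2265 and at 1229 to 1631 counts, without overlap but at a ratio of 1.08. The difference was −0.41 ± 0.16 (SE) on the log2 scale, at a limma adjusted p of 0.172. Gat-1B had 3.43 to 19.5 counts in any library and overlapped between the groups.

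**Figure D3:**
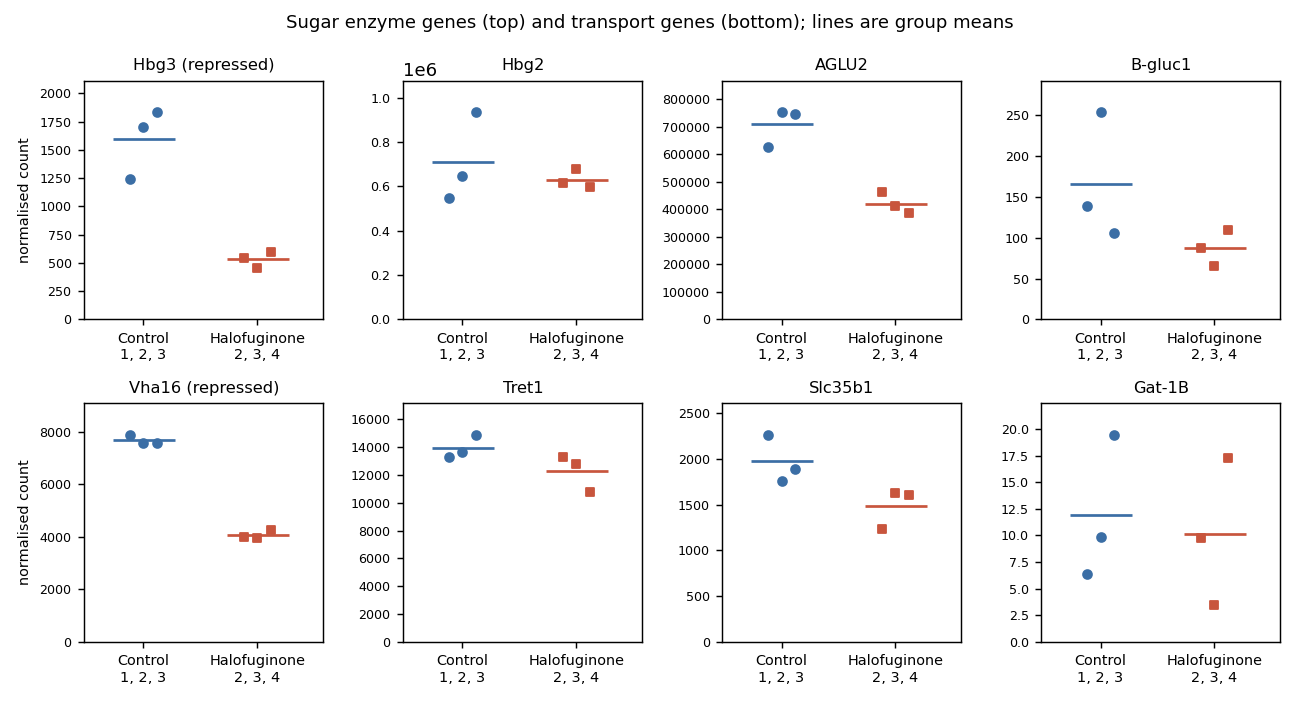
Normalised counts (vertical axes, linear and from 0) of the sugar enzyme genes in the upper row and the transport genes in the lower row, with 1 point per library and lines at the group means. Hbg3 and Vha16 are the repressed genes, and their treated libraries lie below 598 and 4276 counts or at them, whereas Hbg2, B-gluc1, Tret1 and Gat-1B overlap between the groups.

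Among the 10 members with the largest control counts, LOC726855 stood apart. It had 514257, 449289 and 442691 counts in Control 1, 2 and 3 and 220897, 130174 and 257108 in Halofuginone 2, 3 and 4. The controls had a CV of 8.44%, while Halofuginone 3 lay well below the other treated libraries, and the gene was 2.31-fold lower on average. Its log2 fold change of −1.26 ± 0.39 (SE) had a limma adjusted p of 0.102, so LOC726855 was not among the members called. LOC552301 came next, at 84277, 84664 and 65593 counts in the controls against 28676, 41017 and 30580, and here Halofuginone 3 was the highest treated library. The treated bee with the lowest LOC726855 was thus the treated bee with the highest LOC552301.

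LOC725552, LOC724536 and LOC413576 came next, with control means of 23852, 22882 and 20320 counts. LOC724536 held 28216, 20145 and 20286 counts in the controls and 6079, 4181 and 9162 after halofuginone, or 3.53-fold less. In LOC413576 the controls were 14792, 22292 and 23875 and the treated libraries 7009, 6302 and 7864, so the treated bees were closer together than the controls. LOC725552 was 1.88-fold lower, at 22481, 24954 and 24120 against 14081, 13837 and 10171 counts.

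The widest separation among the genes of high count belonged to LOC725165 and LOC408478. LOC725165 had 18108, 14466 and 17128 counts in the controls and 5350, 5368 and 5075 after halofuginone, a group with a CV of 3.11%. Its lowest control was 2.69 times its highest treated library. LOC408478 was 4.19-fold lower, from 8423, 13268 and 14680 counts to 2507, 3624 and 2543, and Control 1 was the lowest control by a wide margin. The other members of this group, LOC100577875, LOC551379 and LOC727121, were 2.01-fold, 1.84-fold and 2.41-fold lower.

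**Figure D4:**
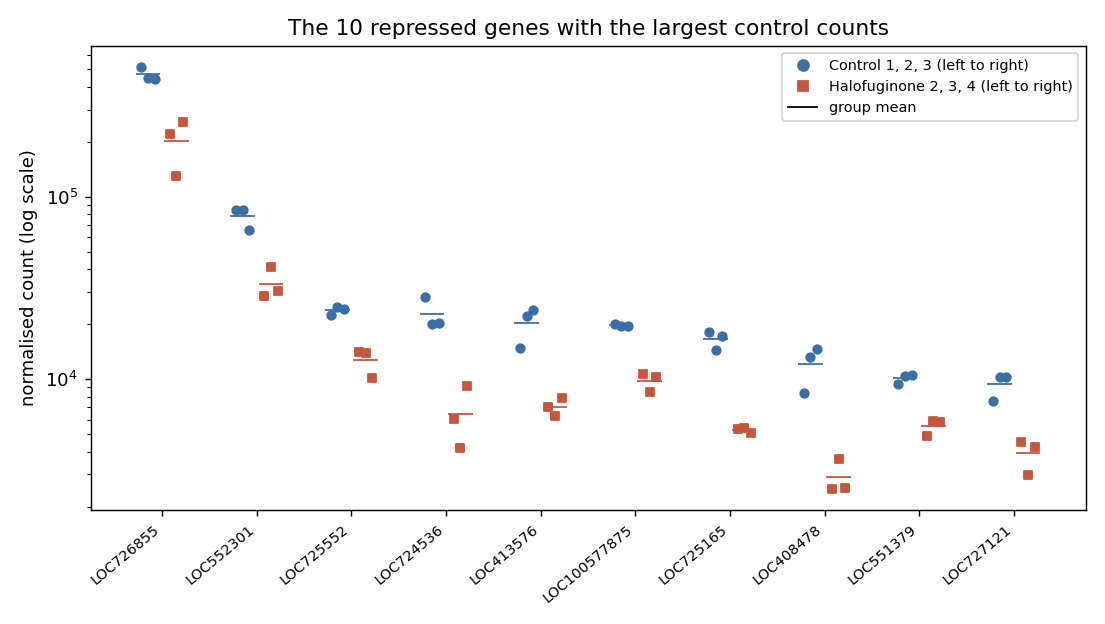
Normalised counts (vertical axis, log scale) of the 10 repressed genes with the largest control counts, with blue circles for Control 1, 2 and 3, red squares for Halofuginone 2, 3 and 4 and lines at the group means. In each gene the squares lie below the circles, and Halofuginone 3 is the lowest square in LOC726855 and the highest in LOC552301.

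The widest gaps between the groups, by ratio, were found in genes of low count, whose treated values rest on few reads. LOC102654929, a long non-coding RNA (lncRNA) by RefSeq, had the widest, with 149, 131 and 139 counts in the controls and 35.1, 22.3 and 32.4 after halofuginone, a ratio of 3.73. LOC100577487, also a lncRNA, stood at 103, 131 and 149 counts in the controls and at 0.976, 11.2 and 30.2 in Halofuginone 2, 3 and 4, where 0.976 stands for 1 read. The treated libraries therefore differed far more from each other than the controls did, and LOC100577487 had a limma adjusted p of 0.0541. LOC107964868, a lncRNA as well, went from 77.7, 110 and 142 counts to 4.88, 23.2 and 18.3. Large ratios were not confined to low counts, as LOC725165 and LOC410207 had ratios of 2.69 and 2.59 at control means of 16567 and 2976 counts.

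LOC100578019 also had a ratio above 3, at 3.16, with more reads behind it than the other 3 such genes. Its counts were 5650, 5040 and 4321 in the controls and 1095, 1367 and 821 after halofuginone, or 4.57-fold lower, with a log2 fold change of −2.21 ± 0.20 (SE). RefSeq lists it as a lncRNA that is not placed on a linkage group. LOC107965507 had a ratio of 2.84, with 75.6, 245 and 195 counts in the controls and 19.5, 26.6 and 14.0 after halofuginone, and Control 1 was much lower than the other controls. LOC107963992 was 5.20-fold lower on average, but Halofuginone 4, at 123 counts, was far above Halofuginone 2 and 3, at 46.8 and 27.5. LOC551863 was even among the treated bees, at 246, 286 and 250 counts against 1121, 706 and 963 in the controls. LOC409539 was near the floor of the rule, with 52.2, 67.1 and 40.02 counts in the controls and 12.7, 15.5 and 1.08 after halofuginone. Its limma adjusted p was 0.0849.

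Some members differed little between bees of a group. In LOC410207 the controls held 3012, 2892 and 3023 counts and the treated libraries 993, 1016 and 1115, a 2.86-fold lower mean with a CV of 2.45% in the controls. LOC100577875 had the steadiest controls of the set, at 19960, 19500 and 19595 counts (CV 1.23%), and its treated libraries were at 10656, 8453 and 10264. LOC413025 followed with a control CV of 1.62% and stood at 1103, 1070 and 1076 counts against 493, 610 and 515. Over the whole set, the highest and the lowest control differed by less than 1.2-fold in 32 genes, and the treated libraries did so in 21. The share over other genes was not computed, so nothing is read from these counts.

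Other members were far from uniform. LOC727202 had 76.7, 185 and 7.18 counts in Control 1, 2 and 3 and 0, 1.72 and 3.24 after halofuginone. Control 3 held 7 reads and the treated libraries 0, 2 and 3 reads, so the gene was almost absent from 4 of the 6 bees and no fold is given for it. LOC410639 ranged from 28.7 to 113 counts in the controls and from 8.78 to 16.2 after halofuginone. LOC100577515 was high in Control 3, at 378 counts, against 158 and 223 in Control 1 and 2, while its treated libraries lay close together at 61.0 to 76.6. LOC107965050 showed the same form, with 102 counts in Control 3 and 50.1 and 54.3 in the other controls. Controls differed by more than 2-fold in 6 members and treated libraries in 12, and here too the share over other genes was not computed.

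The median CV of the 86 genes was 13.7% in the controls and 18.5% after halofuginone, and 56 genes (65.1%) had the larger CV in the treated group. For the 8303 genes with a control mean of at least 50 the medians were 13.7% and 13.6%, and the larger CV fell in the treated group in 51.2%. The treated libraries also held fewer reads of these genes, and the part of this in the wider spread was not tested.

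The limit of the rule fell in a continuous range of values. LOC726540 was just inside it, with a lowest control of 1526 and a highest treated library of 1016 counts (ratio 1.502), and it had the smallest fold of the set at 1.57. LOC410953 followed at 2895 against 1927 counts (1.502), then LOC551553 (1.51), LOC551570 (1.51) and LOC102655663 (1.52). Just outside were LOC100578661, with 1197 against 800 counts (1.496), LOC550686 with 4435 against 2973 (1.49), LOC408965 (1.48), LOC552749 (1.48) and LOC551143 (1.48). LOC550686 was 4573, 4435 and 5548 in the controls and 2973, 2609 and 2891 after halofuginone, values hardly different in form from those of LOC551570, at 5259, 4325 and 4125 against 2271, 2732 and 2552.

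RefSeq matched 77 of the 86 symbols, 67 as protein-coding genes and 10 as lncRNAs. The lncRNA share was 13.0%, against 4.52% of the 7917 matched genes with a control mean of at least 50. Apart from LOC100578019 and LOC102653822, which had 713, 747 and 691 counts in the controls and 217, 343 and 261 after halofuginone, the lncRNAs averaged below 200 counts in the controls. LOC107965716 stood at 52.2, 81.9 and 52.3 counts in the controls and 15.6, 17.2 and 27.0 after halofuginone, and LOC107964909 at 178, 93.7 and 121 against 52.7, 59.2 and 14.0. The folds of the 10 lncRNAs ran from 1.91 to 9.05 with a median of 3.40, against a median of 2.34 for the protein-coding members. The median control mean was 119 counts for the lncRNAs and 1569 for the protein-coding members, so the groups also differed in depth. Several of the lncRNAs, among them LOC107965716, LOC102653822 and LOC100577487, overlap other listed genes, so reads may not be separable between them.

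A total of 76 members could be placed in the RefSeq gene order, and 4 pairs of them were direct neighbours. How many pairs a set of this size would hold was not computed, so nothing is read from their number. LOC411699 and LOC552286 stood side by side without overlap. LOC411699 was at 1784, 1765 and 1969 counts in the controls against 966, 967 and 871 after halofuginone. For LOC552286 the counts were 1893, 1805 and 1954 against 815, 1118 and 695. LOC409792 and LOC102655663 were also adjacent without overlap. LOC409792 had 5333, 7277 and 7016 counts in the controls and 2871, 2409 and 2563 after halofuginone, and LOC102655663 had 267, 300 and 304 against 176, 115 and 96.0.

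The other neighbouring pairs overlap in their spans, so reads may not be separable between them. LOC725205 lies against LOC725165 and was lower in the same libraries, with 320, 483 and 535 counts in the controls and 187, 199 and 88.5 after halofuginone, but its order among the bees was not that of LOC725165. LOC102654929 overlaps the span of LOC102654950, a lncRNA with 73.5, 105 and 99.5 counts in the controls and 39.0, 40.3 and 39.9 after halofuginone. In 2 further pairs, LOC552360 with LOC551372 and LOC726839 with LOC408478, a single gene that was not a member stood between.

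**Figure D5:**
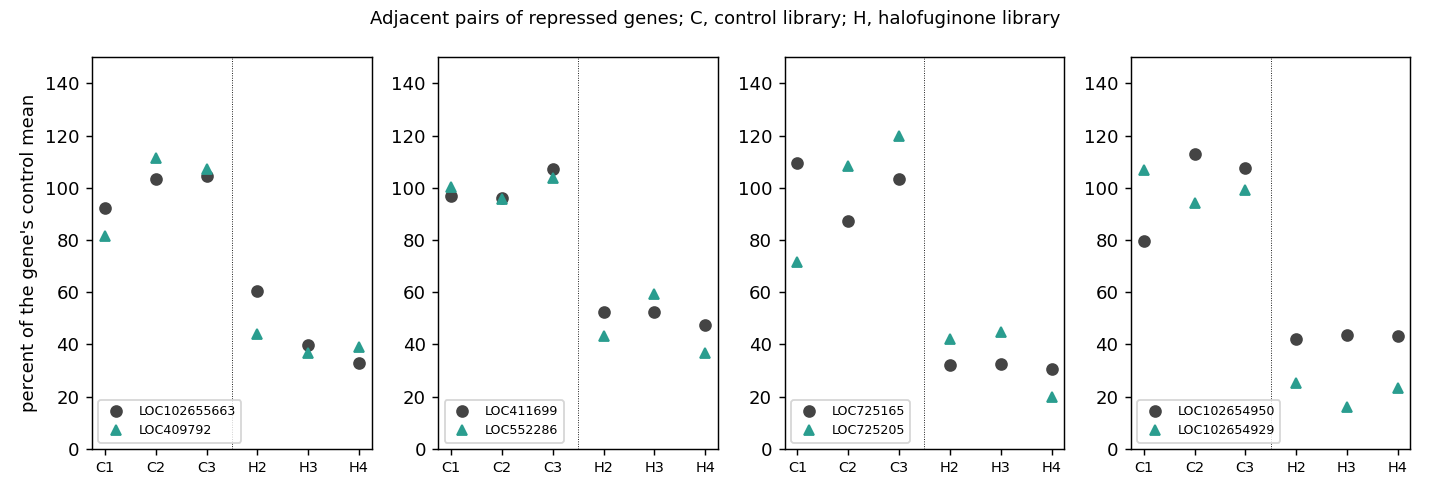
Level of each gene of the 4 adjacent pairs in each library, as a percentage of the gene's own control mean (vertical axis, from 0), for Control 1 to 3 (C1 to C3) and Halofuginone 2 to 4 (H2 to H4). The genes LOC411699 and LOC552286 run close together in the controls, whereas LOC725165 and LOC725205 differ in order, with Control 1 the highest control of the first and the lowest of the second.

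Overlap with other listed genes concerned 26 of the placed members. The share over all placed genes was not computed, so nothing is read from this count. LOC412591, which had 790, 965 and 917 counts in the controls and 142, 162 and 446 after halofuginone, overlaps 5 genes, among them LOC409171, with a control mean of 22632 and a log2 fold change of −0.96. LOC107965050 overlaps LOC100576882, with a control mean of 3474 and a log2 fold change of −1.30. These overlaps are of whole gene spans, introns included, in Amel_HAv3.1, which is not the assembly of the counts. Whether exons overlap, or any read was shared, was not examined. The sources used here do not say whether reads were counted by strand, so the values of the 26 overlapping members remain uncertain in this respect. LOC102653822, for example, lies over LOC550785, which had a control mean of 9483 counts and a log2 fold change of −0.09, and LOC100576425 over LOC408607, with 3447 counts and −0.54.

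The members did not share an order of bees within the groups. Control 1 was the lowest control in 36 members (41.9%) and the highest in 34 (39.5%). Over the genes with a control mean of at least 50 these shares were 37.7% and 46.5%. Control 2 was the lowest in 24 members (27.9%) and Control 3 in 26 (30.2%), against 31.8% and 30.5% of those genes. Among the treated libraries, Halofuginone 3 was the lowest in 34 members (39.5%), Halofuginone 2 in 30 (34.9%) and Halofuginone 4 in 22 (25.6%). Over the 8303 genes with a control mean of at least 50 the shares were 37.2%, 33.8% and 29.0%. With scaling to library totals the share of Halofuginone 4 was 53.5%, so this order depends on the scaling. Halofuginone 3 was the lowest treated library in 14 of the 36 members with Control 1 at the bottom. It was so in 15 of the 34 members with Control 1 at the top. The shares over all genes were not computed for these last counts, so nothing is read from them.

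The other named genes of the midgut gave the surroundings of these values. Of 43 genes on 7 lists drawn up by symbol (sugar enzymes, transport, lipid metabolism, chitin and cuticle, royal jelly and yellow proteins, chemosensory carriers, hormones and nuclear receptors), 2 passed the limma adjusted p as lower, against 2.25% of all genes, and these were the members Hbg3 and Vha16, chosen on this contrast. Both missed it without Control 3. A further 2 passed it as higher, against 4.63% of all genes. CPF1, a cuticular protein gene, had a log2 fold change of 1.08 (limma adjusted p = 0.0343), and FAR1, named for a fatty acyl-CoA reductase, one of 0.73 (limma adjusted p = 0.0491). CPF1 was at 0.0618 to 0.120 and FAR1 at 0.0733 to 0.145 when any 1 of the 6 libraries was left out, so neither call held. No other gene of the 7 lists passed. The royal jelly genes Mrjp7 and Mrjp8 overlapped between the groups. They had 786 to 1408 and 836 to 1732 counts in the controls and 874 to 1355 and 688 to 1222 after halofuginone. Y-f, of the same list, did not overlap, at 844, 190 and 148 counts against 46.8, 135 and 126 (limma adjusted p = 0.219). All 3 genes of this list had a log2 fold change below 0. Other list genes were separated in either direction. Jhe was lower, at 2738 to 3942 counts in the controls and 1945 to 2426 after halofuginone. CSP3 and CPF2 were higher, at 23484 to 36269 and 987 to 1415 against 51903 to 69945 and 1529 to 2563.

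Symbols that mark other cells of a dissected gut were examined beside the set. The 7 troponin genes of muscle summed to 5340 to 8916 counts in the controls and 4750 to 8532 after halofuginone, and the 7 genes of fat body and haemolymph, such as the hexamerins, to 1072 to 1532 and 1111 to 1373. Both sums overlapped between the groups, but single genes did not. TpnCIIIb had 37.3, 51.3 and 38.0 counts in the controls and 21.5, 13.7 and 12.9 after halofuginone, a ratio of 1.74 (log2 fold change −1.36, limma adjusted p = 0.0590), and TpnCI was separated at a ratio of 1.02. In the fat body list 6 of the 7 genes had a log2 fold change below 0, with a median of −0.47, and Hex110 did not overlap between the groups. Tsf1, the transferrin gene, was separated in the other direction, with 403, 496 and 189 counts in the controls and 581, 818 and 578 after halofuginone. Its means, 363 and 659 counts, were the largest of this list, so its rise offsets the lower genes in the sum. The overlap of the fat body sum therefore does not show that the other 6 genes were level. Their sum without Tsf1 was not computed. The 11 genes of neurons and enteroendocrine cells summed to 1434 to 1568 in the controls and 1119 to 1159 after halofuginone, without overlap. Apime-ASTA, the gene of the allatostatin A peptides, stood at 389, 527 and 358 counts in the controls and at 218, 112 and 247 after halofuginone, a ratio of 1.45. Without it the other 10 genes summed to 1017 to 1179 and to 875 to 1007. None of these 25 genes was at 0 in any library and none passed the limma adjusted p, where 2.25% of all genes passed as lower and 4.63% as higher. Of the hypopharyngeal gland list only Hbg3 was analysed here. The part of these cells in the repressed set was not tested. No list of midgut enterocyte markers was drawn up here, so the labelled tissue was not checked against its own markers.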

How the data were processed

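Poly(A) RNA of 6 single midguts was sequenced as paired reads on an Illumina HiSeq. The submitters' processing notes name Trimmomatic (0.36), STAR, Subread and DESeq2, with no role given, and the study's methods state that trimmed reads were mapped to an Apis mellifera assembly older than Amel_HAv3.1 and counted per gene. The deposited values are a normalised signal: the authors divided each read count by 1 size factor per library. In each library 100% of the values gave whole reads within 0.01, and DESeq2's median-of-ratios returned the same factors. No listed gene had fewer than 61 reads in all. Every per-sample column was used.

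The files were joined by gene and the rule was applied to the normalised values. The genes, lists and tests were chosen with earlier results of these data known. All 10041 genes entered limma (3.58.1, R 4.3.3) on log2(value + 1) with a trended variance and no term but group, and p values were adjusted by Benjamini-Hochberg over all genes. The added 1 shrinks the fold changes of low genes on this scale, while a single very low library can enlarge them. LOC100577487, for example, stood at −3.81 in limma and at −3.19 with DESeq2. SE is limma's moderated value, which draws on genes of similar count and is not the spread of a single gene between bees. In simulated counts for these 3 against 3 libraries and 10041 genes, limma found 90.5% of the 200 genes changed 3-fold. It gave 0 of them the opposite sign, and 7 of its 188 calls fell on unchanged genes.

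Alternatives were other scalings, pseudocounts and filters, limits of the rule, count tests on the recovered reads (DESeq2 1.42.0, edgeR 4.0.16) and left-out libraries. Genes were named by rule: symbols, the 10 largest control counts, the 10 largest ratios, the 5 nearest the limit on either side and the 5 highest and lowest CVs. Neighbouring pairs, overlapping genes and the other lncRNAs were added after their values were seen. So were, from the lists, CPF1, FAR1, Mrjp7, Mrjp8, Y-f, Jhe, CSP3, CPF2, TpnCI, TpnCIIIb, Hex110, Tsf1 and Apime-ASTA. The lists were matched to symbols once the gene names were known, and no symbol matched the lists of digestive proteases and of ISR genes. Gene order, biotypes and synonyms came from RefSeq for Amel_HAv3.1, in which 9225 of the 10041 symbols were found. As this is not the assembly of the counts, no coordinates are printed. Python 3.11.15 with pandas 2.3.3 and matplotlib 3.10.9 was used for the other steps.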

Additional observations from a re-analysis of the deposited data

How the results depend on the processing

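The rule gave 230 genes at a ratio of 1.3 and 20 at a ratio of 2. With 1 library left out it gave 110 to 226, the lowest without Control 2 and the highest without Control 1. Leaving out a library can only raise a gene's ratio or keep it, so more genes were bound to pass, apart from the control minimum. TMM, upper-quartile and library-total scaling gave 90, 104 and 61 genes, of which 86, 86 and 56 were among the 86. The median log2 fold change of the 86 stayed between −1.37 and −1.18 over the 18 alternatives. The rule fixes the sign of the members, so this is no sign of stability. The number of members called lower was 9 to 40 with 1 library left out and 64 with DESeq2 and 55 with edgeR on the recovered reads. Over all genes the number called lower was 70 in limma, 12 to 83 with 1 library left out, 137 with DESeq2 and 77 with edgeR. The cause of these changes was not tested. With library-total scaling the lowest treated library was Halofuginone 2, 3 and 4 in 20.9%, 25.6% and 53.5% of members.

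The groups share the replicate numbers 2 and 3. Deviations from the group means correlated at 0.0715 and −0.033 across genes for these pairs, so the numbers were not taken to pair the bees. With the replicate number as a block, on the 4 libraries so numbered, limma called 0 genes and 0 members lower (unadjusted p under 0.05: 1018 genes and 82 members), and without the block 72 genes and 28 members. With the deposited table as a block (correlations −0.178 to −0.114), 1 gene, a member, was called lower. The block leaves few degrees of freedom. Depth limits the members of low count most.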
